A study of Homo sapiens with 24 samples.

Results

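The genes described here are 40 named genes of the integrated stress response: 4 transcription factors of the ATF4 branch, 6 feedback and growth regulators, 9 enzymes of amino acid and folate metabolism, 6 amino acid transporters, STC2 and VLDLR, the tRNA exporter XPOT and 12 cytosolic aminoacyl-tRNA synthetases. They were chosen by name from what is known of this pathway, with earlier results of these data known. All 40 were found among the 58138 gene names of the count tables. All 40 had enough reads to be tested in HEK293T cells, and 39 in Flp-In T-REx 293 cells. There ASNS (asparagine synthetase) had 2 to 10 reads per library and was below the filter on low counts.

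In this pathway, kinases that sense amino acid shortage, misfolded protein in the endoplasmic reticulum, viral RNA or lack of haem phosphorylate the initiation factor eIF2, which lowers protein synthesis in general while the mRNA of ATF4 is translated more. ATF4 then switches on genes that make, import and load amino acids, together with CHOP (encoded by DDIT3), ATF3, TRIB3 and PPP1R15A, which shape or end the response. As translation controls much of ATF4's own output, the mRNAs of its targets are usually read alongside its own mRNA.

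The series concerned the RPRD proteins, which bind the tail of RNA polymerase II, and used RNA from 24 samples of human embryonic kidney lines in 12 groups of 2. HEK293T cells received control siRNA (CTRL) or siRNA named for RPRD1A, RPRD1B or RPRD2 for 48 h. The single groups are RPRD1B_KD, RPRD1A_KD and RPRD2_KD, and the combined ones are RPRD1A_RPRD2_KD, RPRD1B_RPRD2_KD, RPRD1A_RPRD1B_RPRD2_KD and RPRD1A_RPRD1A_KD; the last label names RPRD1A in both places and was kept as it is. The Flp-In T-REx 293 line, a HEK293 derivative in which an inserted gene can be put under a tetracycline-controlled promoter, gave untreated parent cells (FLP), parent cells given tetracycline for 48 h (FLP_TET), an untreated line labelled RPRD1B_FL and that line with tetracycline for 48 h (RPRD1B_FL_TET). The labels do not explain FL, do not say whether the line is a clone and do not say whether the samples of a group came from separate cultures, so p-values measure the spread between these samples, which may be technical.

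Promoters of 33 members were found in the RefSeq table (GRCh38.p14); PSPH, SHMT2, PYCR1, SLC7A11, EIF4EBP1, LARS and YARS had no entry under their names. The 250 bases before each start were searched on both strands for TGATGCAA, a form of the composite element bound by ATF4 with a C/EBP partner, and for the wider TGATGNAA, which includes it. The first was present for 4 of 33 members (12.1%), against 0.967% of 27305 gene symbols with a promoter in the table. The second was present for 7 of 33 (21.2%), against 3.89% of all symbols. A match describes letters in the window and is not evidence of binding.

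Reads came from QuantSeq 3′ libraries in the REV version, in which a transcript is read from its polyadenylated end. Totals in genes were 1817246 to 3135625 reads in HEK293T and 2342969 to 3531106 in Flp-In libraries, and members took 0.558% to 0.748% and 0.490% to 0.558% of them. Levels are given as CPM, edgeR's read counts scaled to TMM library sizes, within each line, so levels of HEK293T and Flp-In libraries are not on a shared scale. At these depths 3 reads, taken as the floor, are 0.832 to 1.71 CPM; intervals from counting cover counting error only. The silenced genes were below control wherever a label names them: RPRD1A was at 161 ± 6.81 CPM (SD, n = 2) in CTRL and at 19.4 to 26.4 CPM on average in the groups naming it. It was also at 94.3 ± 11.2 CPM in RPRD1B_KD, 87.4 ± 17.5 in RPRD2_KD and 77.5 ± 11.1 in RPRD1B_RPRD2_KD (SD, n = 2 each), whose labels do not name it. RPRD1B was at 34.4 ± 0.376 CPM in FLP, 29.4 ± 0.186 in FLP_TET, 43.5 ± 0.467 in RPRD1B_FL and 74.2 ± 13.6 in RPRD1B_FL_TET (SD, n = 2 each). RPRD1B (28.4 ± 0.183 CPM, SD, n = 2, in CTRL) was also at 11.2 ± 4.34 CPM (SD, n = 2) in RPRD1A_RPRD1A_KD, whose label does not name it. All 8 genes fixed as marks of 293 cells had reads in every library, while of 9 genes of other cell types only COL1A1 did, and the other 8 had at most 2 reads. Some of the marks were near the floor: the lowest count was 1 for PAX2, 2 for NEFM and 3 for NEFL and KRT8. COL1A1 had 3 to 42 reads.

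With tetracycline in the parent line, of 39 tested members 1 was called at an adjusted p under 0.05, MARS, which fell, against 1.02% of the 11948 genes tested. Of these, 24 of 39 had a log2 fold change above 0, with a median of 0.11 against -0.0055 over all genes. In 17 members both FLP_TET libraries lay above both FLP libraries, and in 7 below, where 29.1% and 28.9% of all genes did so. At an unadjusted p under 0.05 there were 9 higher and 4 lower members, where 11.1% and 11.6% of all genes were. With tetracycline in the RPRD1B_FL line none of 39 members was called, as none (0%) of all genes was, by edgeR or by DESeq2. RPRD1B itself, whose mean level was higher in RPRD1B_FL_TET than in RPRD1B_FL, was thus not called either. At an unadjusted p under 0.05 there were 2 members, both lower, AARS and EPRS, with 6.13% of all genes. Both RPRD1B_FL_TET libraries were above both RPRD1B_FL libraries in 1 member (PSPH) and below them in 6, where 15.6% and 16.9% of all genes were. The median member log2 fold change was 0.017 there, against 0.00095 over all genes. The 2 RPRD1B_FL_TET libraries differed by a chi-square of 6.02 per degree of freedom, against 4.54 for FLP, 2.79 for RPRD1B_FL and 2.01 for FLP_TET. With no filter on low counts, 6 of all genes were called with tetracycline in the RPRD1B_FL line.

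**Figure D1:**
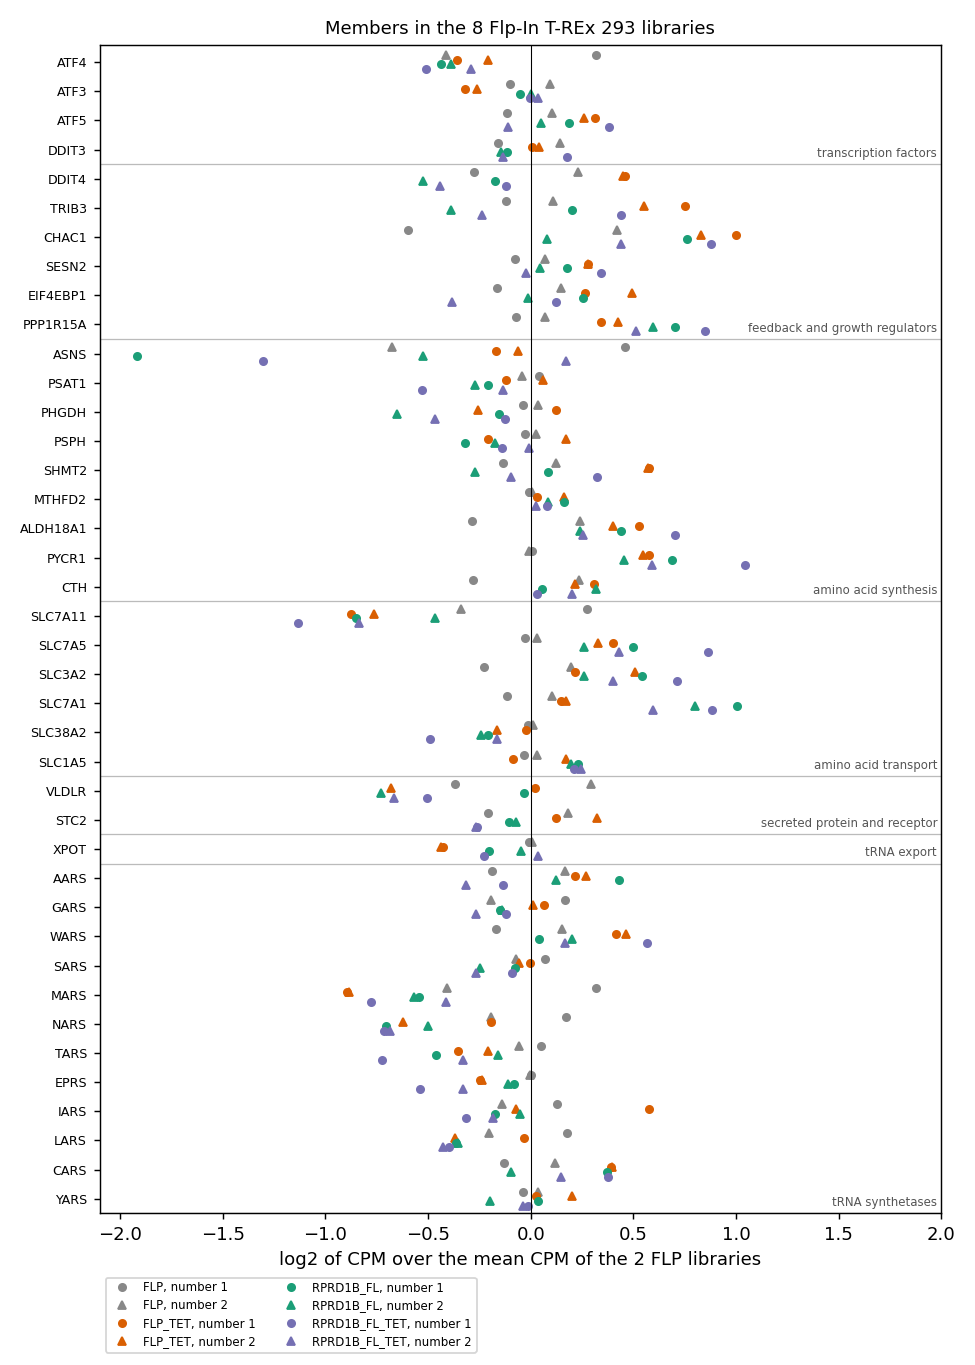
Each row is a member and each point a library of the Flp-In T-REx 293 cells, placed on the x axis at the log2 of its CPM over the mean CPM of the 2 FLP libraries. Circles are libraries numbered 1, triangles libraries numbered 2, and colours the 4 groups. The orange FLP_TET points of all 6 feedback and growth regulators lie to the right of both grey FLP points, MARS lies to the left, and SLC7A1 separates the RPRD1B_FL line from the parent line.

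None of the 4 transcription factors was called with tetracycline in either line. ATF4, the regulator the group is named for (chr22:39519695-39522685, plus strand), was at 1061 and 638 CPM in FLP, 663 and 736 in FLP_TET, 627 and 649.6 in RPRD1B_FL and 597 and 694 in RPRD1B_FL_TET. The single high value is the first FLP library, and the other 7 lie within a narrow band, so the groups overlap. Its log2 fold change with tetracycline was -0.28 (SE 0.18, edgeR adjusted p = 0.356) in the parent line and 0.017 (SE 0.18, edgeR adjusted p = 0.991) in the RPRD1B_FL line. DDIT3, which encodes the proapoptotic factor CHOP, was at 35.7 and 44.1 CPM in FLP, 40.1 and 41 in FLP_TET, 36.9 and 36.1 in RPRD1B_FL and 45.2 and 36.4 in RPRD1B_FL_TET, with overlapping groups throughout. ATF3, an early stress-induced repressor, was at 28.8 and 33 CPM in FLP and 24.8 and 25.7 in FLP_TET, lower without overlap but not called (-0.30 (SE 0.20, edgeR adjusted p = 0.392)). ATF5, a relative of ATF4 that promotes survival, was higher without overlap and not called (0.28 (SE 0.18, edgeR adjusted p = 0.345)).

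All 6 feedback and growth regulators were higher with tetracycline in the parent line without overlap, as 29.1% of all genes were, and none was called. Their log2 fold changes ran from 0.28 to 0.87 with a median of 0.41. CHAC1, an enzyme that breaks down glutathione, was at 4.38 and 8.87 CPM in FLP, 13.3 and 11.8 in FLP_TET, 11.2 and 7 in RPRD1B_FL and 12.2 and 8.99 in RPRD1B_FL_TET. The lowest level, in the FLP library numbered 1, rests on 12 reads, and the effect was 0.87 (SE 0.33, edgeR adjusted p = 0.136). TRIB3, a pseudokinase that restrains ATF4, was at 49.2 and 57.7 CPM in FLP, 90 and 78.5 in FLP_TET, 61.4 and 40.9 in RPRD1B_FL and 72.4 and 45.4 in RPRD1B_FL_TET. DDIT4 (also called REDD1), which inhibits the growth kinase complex mTORC1, was at 171 and 243 CPM in FLP, 286 and 283 in FLP_TET, 184 and 144 in RPRD1B_FL and 191 and 153 in RPRD1B_FL_TET. For both genes the FLP_TET pair stands above the other 6 libraries. The tetracycline effect in the parent line was 0.65 (SE 0.21, edgeR adjusted p = 0.0894) for TRIB3 and 0.45 (SE 0.17, edgeR adjusted p = 0.136) for DDIT4. EIF4EBP1, which encodes a repressor of cap-dependent translation, was at 32.8 and 40.8 CPM in FLP, 44.2 and 51.8 in FLP_TET, 43.9 and 36.5 in RPRD1B_FL and 40.1 and 28.2 in RPRD1B_FL_TET. PPP1R15A (GADD34), the phosphatase subunit that restores eIF2, was at 29.9 and 33 CPM in FLP, 39.8 and 42.3 in FLP_TET, 51.3 and 47.5 in RPRD1B_FL and 56.6 and 44.9 in RPRD1B_FL_TET. It was lowest in FLP and higher in the other 3 groups. SESN2, a leucine sensor upstream of mTORC1, showed the smallest difference of the 6 (0.28 (SE 0.16, edgeR adjusted p = 0.287)). In the RPRD1B_FL line none of the 6 differed without overlap, and their median was 0.063.

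Among the 8 tested enzymes of amino acid synthesis, 4 were higher with tetracycline in the parent line without overlap and none lower, beside 29.1% and 28.9% of all genes, and none was called. SHMT2, the mitochondrial enzyme that takes a carbon unit from serine, was at 234 and 279.8 CPM in FLP, 384 and 382 in FLP_TET, 272 and 213 in RPRD1B_FL and 321 and 240.5 in RPRD1B_FL_TET. Both FLP_TET libraries exceed all 6 others. PYCR1, which completes proline synthesis, was at 97.3 and 96.5 CPM in FLP, 145 and 141 in FLP_TET, 156 and 133 in RPRD1B_FL and 199.97 and 146 in RPRD1B_FL_TET. For PYCR1 the FLP pair is the low one, and all 6 other libraries are above it. Their tetracycline effects in the parent line were 0.57 (SE 0.16, edgeR adjusted p = 0.0667) and 0.56 (SE 0.17, edgeR adjusted p = 0.0726), and in the RPRD1B_FL line 0.21 (SE 0.17, edgeR adjusted p = 0.824) and 0.26 (SE 0.17, edgeR adjusted p = 0.799). ALDH18A1, which opens the proline pathway, was at 122 and 176 CPM in FLP, 215 and 197 in FLP_TET, 202 and 176 in RPRD1B_FL and 243 and 178 in RPRD1B_FL_TET, with the first FLP library lowest. The 3 enzymes that make serine overlapped between FLP and FLP_TET: the log2 fold change was -0.052 for PHGDH, -0.026 for PSAT1 and -0.0088 for PSPH. MTHFD2, the mitochondrial folate enzyme, and CTH, which makes cysteine, were at log2 fold changes of 0.097 and 0.24.

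The amino acid transporters went in different directions. SLC7A11, the cystine importer, was at 31.4 and 20.5 CPM in FLP, 14.2 and 15.3 in FLP_TET, 14.4 and 18.8 in RPRD1B_FL and 11.8 and 14.5 in RPRD1B_FL_TET. Both FLP libraries were above all 6 others, and the tetracycline difference in the parent line, -0.80 (SE 0.25, edgeR adjusted p = 0.0874), was not called. SLC7A5 (LAT1), the large neutral amino acid carrier, was at 128 and 134 CPM in FLP, 173 and 164 in FLP_TET, 185 and 157 in RPRD1B_FL and 239 and 177 in RPRD1B_FL_TET. SLC3A2, the heavy chain it works with, was at 49.6 and 66.5 CPM in FLP, 67.6 and 82.6 in FLP_TET, 84.6 and 69.6 in RPRD1B_FL and 95.3 and 76.6 in RPRD1B_FL_TET. For both subunits of this carrier the FLP libraries were the lowest or among the lowest, and the difference with tetracycline was 0.36 (SE 0.16, edgeR adjusted p = 0.192) and 0.36 (SE 0.19, edgeR adjusted p = 0.256). SLC38A2 and SLC1A5, carriers of neutral amino acids and glutamine, stayed within 0.10 of 0 on the log2 scale. STC2, a secreted glycoprotein, was at 151 and 198 CPM in FLP, 190.3 and 218 in FLP_TET, 162 and 166 in RPRD1B_FL and 145 and 145 in RPRD1B_FL_TET; its groups overlap for tetracycline in the parent line. VLDLR, a lipoprotein receptor, had 3.68 to 7.49 CPM and overlapping groups in all comparisons of this line pair.

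MARS, methionyl-tRNA synthetase (chr12:57475445-57517569, plus strand), was the member called with tetracycline in the parent line. It was at 224 and 135 CPM in FLP, 96.5 and 96.9 in FLP_TET, 123 and 121 in RPRD1B_FL and 105 and 135 in RPRD1B_FL_TET. The first FLP library is far above the rest, the second FLP library is close to the second RPRD1B_FL_TET library, and the FLP_TET pair is lowest. It fell by 0.88 on the log2 scale (SE 0.19, edgeR adjusted p = 0.0468). Without the first FLP library the value was -0.48 (edgeR adjusted p = 0.629), and the call was also lost without the first (0.336) or the second FLP_TET library (0.344); over 14 alternatives the adjusted p ran from 0.000318 to 0.629. The last exons of MARS and DDIT3 lie on opposite strands and share 355 bases, and whether counting used the strand is not stated, so reads at this 3′ end are uncertain for both genes. In bulk RNA, fewer cells with a transcript and less of it per cell cannot be told apart.

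Of the 12 synthetases, MARS included, 6 were above 0 and 6 below with tetracycline in the parent line, with a median of 0.0077. WARS, for tryptophan, was at 85.7 and 107 CPM in FLP, 128 and 133 in FLP_TET, 99 and 111 in RPRD1B_FL and 143 and 108 in RPRD1B_FL_TET. CARS, for cysteine, was at 74 and 88.2 CPM in FLP, 106 and 107 in FLP_TET, 105 and 75.9 in RPRD1B_FL and 105 and 89.9 in RPRD1B_FL_TET. Both were higher without overlap in FLP_TET (0.44 (SE 0.17, edgeR adjusted p = 0.141) and 0.39 (SE 0.18, edgeR adjusted p = 0.192)). EPRS, for glutamate and proline, was at 121 and 121 CPM in FLP, 102 and 103 in FLP_TET, 114 and 112 in RPRD1B_FL and 83.1 and 96.3 in RPRD1B_FL_TET. TARS, for threonine, was at 643 and 597 CPM in FLP, 486 and 536 in FLP_TET, 450.1 and 554 in RPRD1B_FL and 374 and 493 in RPRD1B_FL_TET. EPRS was the only 1 of 39 members that moved the same way without overlap with tetracycline in both lines, and it was lower. Of all genes 14.7% moved the same way without overlap. AARS, for alanine, was at 44.8 and 57.4 CPM in FLP, 59.3 and 61.6 in FLP_TET, 68.8 and 55.6 in RPRD1B_FL and 46.6 and 41.1 in RPRD1B_FL_TET. It was higher without overlap in FLP_TET (0.23 (SE 0.18, edgeR adjusted p = 0.468)) and lower without overlap in RPRD1B_FL_TET (-0.50 (SE 0.19, edgeR adjusted p = 0.788)). XPOT, which carries tRNA out of the nucleus, was at 66 and 66.5 CPM in FLP, 49.3 and 48.9 in FLP_TET, 57.6 and 64.1 in RPRD1B_FL and 56.6 and 68 in RPRD1B_FL_TET, and its tetracycline effect was -0.43 (SE 0.17, edgeR adjusted p = 0.148) in the parent line against 0.032 (SE 0.18, edgeR adjusted p = 0.977) in the RPRD1B_FL line.

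The tetracycline effects of the lines were then compared directly. No member was called as different between them by edgeR or DESeq2 (0 of 39, and 0 of 11948 genes), and 2 members had an unadjusted p under 0.05, where 3.99% of genes did: MARS at 0.86 (SE 0.28, edgeR adjusted p = 0.991) and AARS at -0.74 (SE 0.27, edgeR adjusted p = 0.991), as RPRD1B_FL line minus parent. All 6 feedback and growth regulators had the smaller effect in the RPRD1B_FL line, with differences from -0.65 to -0.22 and a median of -0.41 against -0.0086 over all genes. Across genes this difference also moved with the GC content of the transcript, as given below. The sign of the tetracycline effect was shared by 26 of 39 members, beside 68.2% of all genes; these comparisons share no library. AARS and MTHFD2 lay in opposite directions without overlap, as 3.55% of all genes did.

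**Figure D2:**
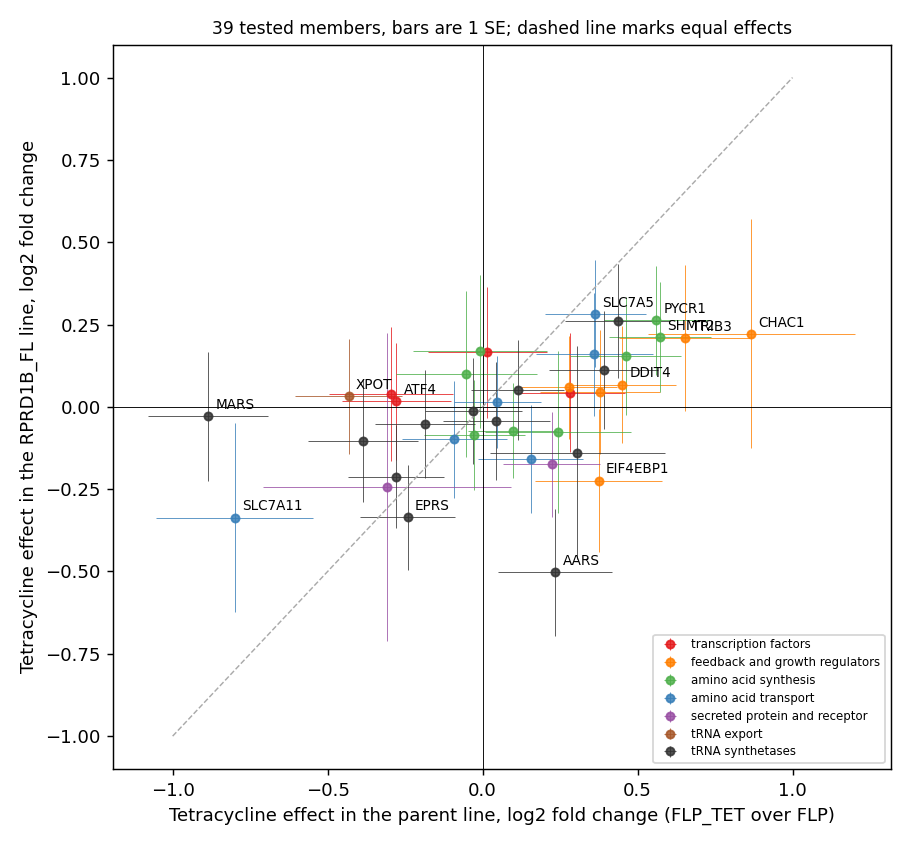
Points are the 39 tested members, with the tetracycline log2 fold change of the parent line on the x axis, that of the RPRD1B_FL line on the y axis, bars of 1 SE and colours for the roles; the dashed line marks equal effects. CHAC1 at 0.87 and TRIB3 at 0.65 lie far right at 0.22 and 0.21 on the y axis, MARS lies far left near 0 and AARS lowest at -0.50.

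Expression in these libraries followed the GC content of transcripts to different extents, and the members' tetracycline effects moved with it. Across genes within a library, Spearman's rho between the GC content of a gene's longest transcript and the deviation of its level from the mean ran from -0.576 (the first FLP library) to 0.642 (the first RPRD1B_FL_TET library). In the second RPRD1B_FL_TET library it was -0.15. Across genes, rho between GC content and the tetracycline log2 fold change was 0.551 in the parent line (11750 genes) and 0.645 over the 39 members. In the RPRD1B_FL line it was 0.442 and 0.529. For the difference of these effects, RPRD1B_FL line minus parent, it was -0.241 over all genes and -0.478 over members. Genes share the libraries and are not independent, so these are descriptions. Members have a median GC content of 51.8% against 47.9% over all genes, and the feedback regulators are GC-rich: EIF4EBP1 at 65.5%, CHAC1 at 62.6% and TRIB3 at 60.9%. SLC7A11, at 35.4%, was the member with the lowest GC content. With a GC correction the median member effect in the parent line was 0.014, TRIB3 was at 0.34, DDIT4 at 0.19 and SLC7A5 at 0.043. CHAC1 was at 0.54, SHMT2 at 0.34, PYCR1 at 0.23 (edgeR adjusted p = 0.337) and SLC7A11 at -0.43, while MARS was at -1.05 (edgeR adjusted p = 0.0200).

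**Figure D3:**
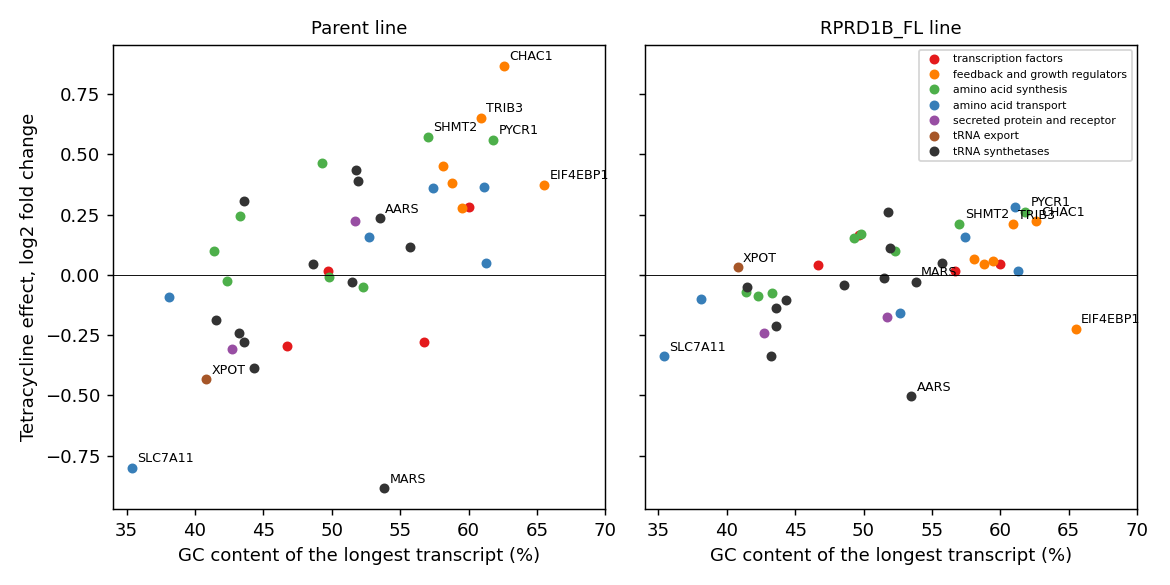
Each point is a tested member, with the GC content of its longest GENCODE transcript on the x axis in percent and its tetracycline log2 fold change on the y axis, for the parent line on the left and the RPRD1B_FL line on the right. SLC7A11 (35.4% GC, -0.80) and CHAC1 (62.6% GC, 0.87) mark the ends of the rising pattern in the parent line, and MARS (53.8% GC, -0.88) lies below it.

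With tetracycline in both, 28 of 39 members had a log2 fold change below 0 in the RPRD1B_FL line against the parent line, with a median of -0.14 against 0.0036 over all genes. DDIT4 was the member called (1.11% of all genes were called): it was lower in RPRD1B_FL_TET, at -0.72 on the log2 scale (SE 0.18, edgeR adjusted p = 0.0432; 0.00153 to 0.408 over 14 alternatives), and both RPRD1B_FL_TET libraries lay below both FLP_TET libraries. The call was lost without the first FLP_TET library (edgeR adjusted p = 0.408), the second FLP_TET library (0.340) or the second RPRD1B_FL_TET library (0.149). Its antisense neighbour DDIT4-AS1 shares 847 exon bases with it. In 16 members the groups did not overlap with RPRD1B_FL_TET lower and in 8 with it higher, where 19.9% and 18.4% of all genes did so. Of the 6 feedback and growth regulators 5 were below 0, 3 without overlap, with a median of -0.35. Of the 12 synthetases 11 were below 0, 9 without overlap, with a median of -0.21, and none was called. AARS was at -0.46 (SE 0.19, edgeR adjusted p = 0.357) and IARS, for isoleucine, at -0.54 (SE 0.30, edgeR adjusted p = 0.576), from 15.9 and 10.2 CPM in FLP_TET and 8.6 and 9.41 in RPRD1B_FL_TET. Lower without overlap and not called were also STC2 (-0.49 (SE 0.16, edgeR adjusted p = 0.187)), TRIB3 (-0.51 (SE 0.21, edgeR adjusted p = 0.371)), SHMT2 (-0.45 (SE 0.16, edgeR adjusted p = 0.274)) and EIF4EBP1 (-0.48 (SE 0.21, edgeR adjusted p = 0.406)). In the GC correction STC2, SHMT2 and SLC7A1 were called beside DDIT4, where 257 of all genes were called, against 133 in the main fit.

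Without tetracycline the lines differed in 1 called member of 39, beside 1.18% of all genes. This was SLC7A1, the carrier of arginine and lysine (chr13:29509410-29595688, minus strand), at 66 and 76.8 CPM in FLP, 79.1 and 80.4 in FLP_TET, 143 and 124 in RPRD1B_FL and 132 and 108 in RPRD1B_FL_TET. All 4 libraries of the RPRD1B_FL line lie above all 4 of the parent line. The untreated difference was 0.90 (SE 0.17, edgeR adjusted p = 0.00506), so SLC7A1 was higher in RPRD1B_FL without tetracycline, and with tetracycline the difference was 0.59 (SE 0.17, edgeR adjusted p = 0.103), which was not called. Over 15 alternatives the untreated adjusted p ran from 0.000189 to 0.115, the value without the first FLP library being 0.109 and without the first RPRD1B_FL library 0.115. In 8 members the groups did not overlap with RPRD1B_FL higher and in 12 with it lower, where 22.7% and 21.7% of all genes did so. NARS, for asparagine, was at 137 and 106 CPM in FLP, 106 and 79.1 in FLP_TET, 74.8 and 86.2 in RPRD1B_FL and 74.2 and 75.7 in RPRD1B_FL_TET, and PYCR1 and PPP1R15A were higher in RPRD1B_FL without overlap (0.58 (SE 0.17, edgeR adjusted p = 0.109) and 0.65 (SE 0.19, edgeR adjusted p = 0.114)). LARS, for leucine, was at 246 and 189 CPM in FLP, 213 and 169 in FLP_TET, 169 and 170.2 in RPRD1B_FL and 165 and 162 in RPRD1B_FL_TET, lower without overlap in RPRD1B_FL (-0.36 (SE 0.16, edgeR adjusted p = 0.345)). Of 39 members 26 had the same sign with and without tetracycline, beside 61.8% of all genes, and 10 did not overlap in the same direction both times, beside 15.6% of all genes. These were EPRS, LARS, NARS, PSAT1 and SARS, lower, and PPP1R15A, PYCR1, SLC1A5, SLC7A1 and SLC7A5, higher. Spearman's rho between GC content and the untreated line difference was 0.26 over all genes and 0.506 over members. With tetracycline in both lines it was 0.0068 and 0.098. With the GC correction the untreated difference was 0.41 for PYCR1, 0.50 for PPP1R15A, 0.22 for SLC7A5 and 0.82 for SLC7A1. For NARS it was -0.55 and for LARS -0.29. The part of GC content in these differences was not tested. TARS and NARS lie on parts of the genome whose median gene was below 0 in the RPRD1B_FL line: the median log2 fold change was -0.52 over 90 genes of 5p, where TARS is, and -0.27 over 178 genes of chromosome 18, where NARS is, without tetracycline. It was -0.025 over 228 genes of chromosome 13, where SLC7A1 is, without tetracycline, and 0.11 with it. Over 461 genes of 5q, where LARS and STC2 are, it was -0.090 without tetracycline and -0.047 with it. Each line stands for itself here, so the introduced gene and other differences between the lines cannot be told apart.

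Related gene lists were read beside the members. Of 26 tested other ATF4-linked genes, 17 mitochondrial synthetases, 11 other cytosolic synthetases and partners, 16 genes of the eIF2 kinases, eIF2 and eIF2B, and 19 chaperones and degradation genes of the endoplasmic reticulum, none was called with tetracycline in either line. Their medians with tetracycline in the parent line ran from -0.078 (other ATF4-linked genes) to 0.044 (chaperones). At an unadjusted p under 0.05 there were in the parent line 3 higher and 2 lower other ATF4-linked genes and also 3 higher and 2 lower chaperones, beside 11.1% and 11.6% of all genes. There were 3 higher and 1 lower of the other cytosolic synthetases and partners, 1 higher and 2 lower of the mitochondrial synthetases and none of the eIF2 genes.

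Silencing of RPRD genes called no member in any of the 7 comparisons with CTRL, by edgeR or by DESeq2, where 0.00845% or 0.0169% of 11834 genes were called. That fit has no term for the replicate number. In a fit with the number as a block and without the second RPRD1A_RPRD2_KD library, SLC7A5 was called lower in RPRD1B_KD (edgeR adjusted p = 0.0131), RPRD2_KD (4.94e-05) and RPRD1A_RPRD1A_KD (0.000958), SHMT2 in RPRD1B_KD (0.00714), and ATF5 in RPRD2_KD (0.0292) and RPRD1A_RPRD1A_KD (0.0288). With the block and all 16 libraries, or without that library and no block, no member was called. The fit that called members also called many more of all genes in the same groups than the main fit did. It called a further member, not named here, in RPRD1A_RPRD1A_KD. In the main fit, members with an unadjusted p under 0.05 numbered 2 in RPRD1B_KD (3.46% of all genes), 1 in RPRD1A_KD (2.64%), 2 in RPRD2_KD (3.84%) and 2 in RPRD1A_RPRD1A_KD (3.99%), all lower. They numbered 2 in RPRD1A_RPRD2_KD (7.07%), 1 in RPRD1B_RPRD2_KD (2.51%) and 1 in RPRD1A_RPRD1B_RPRD2_KD (3.99%). Median member log2 fold changes ran from -0.13 (RPRD1A_RPRD1A_KD) to 0.024 (RPRD1A_RPRD2_KD). Leaving out 1 library moved them between -0.36 (RPRD1A_RPRD1A_KD) and 0.24 (RPRD1A_RPRD2_KD), and in each of the 7 comparisons to both sides of 0. The 7 comparisons share the 2 control libraries, so a high or low control value enters all of them. SLC7A5 was at 663 and 714 CPM in CTRL and between 447 and 653 CPM, with a median of 540.4, in the 14 silenced libraries. Both control libraries lie above every silenced library, by least over RPRD1B_RPRD2_KD number 1. The difference was -0.57 (SE 0.16, edgeR unadjusted p = 0.00204) in RPRD2_KD, -0.48 (SE 0.15, edgeR unadjusted p = 0.0067) in RPRD1A_RPRD1A_KD, -0.40 (SE 0.15, edgeR unadjusted p = 0.0184) in RPRD1B_KD and -0.34 (SE 0.15, edgeR unadjusted p = 0.0441) in RPRD1A_KD. In every silenced group but RPRD1A_RPRD2_KD, the lowest edgeR adjusted p of any member lay between 0.99969 and 0.99994. The share of all genes whose control pair lies outside every silenced library is not given here. ASNS was at 2.85 and 4.1 CPM in CTRL, from 5 and 9 reads, and between 4.48 and 17.4 CPM in the silenced libraries. Here the control libraries are the lowest, and the highest silenced value is the RPRD1A_RPRD2_KD library numbered 2. The difference was 1.92 (SE 0.55, edgeR adjusted p = 0.619) in RPRD1A_RPRD2_KD (adjusted p from 0.0120 to 1 over 13 alternatives) and 1.49 (SE 0.58, edgeR unadjusted p = 0.0198) in RPRD1A_RPRD1B_RPRD2_KD.

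ATF5, SHMT2, IARS, ALDH18A1, SLC7A11 and LARS completed the members with the lowest p in a silenced group. ATF5 was at 50.7 and 35.5 CPM in CTRL, 32.8 and 27.2 in RPRD1A_KD, 29.9 and 21 in RPRD2_KD and 28 and 21.2 in RPRD1A_RPRD1A_KD. SHMT2 was at 160.2 and 192 CPM in CTRL and 118 and 127 in RPRD1B_KD, a difference of -0.53 (SE 0.18, edgeR unadjusted p = 0.00906). For both genes the control mean was the highest of the 8 groups. For ATF5 single libraries of RPRD1B_RPRD2_KD (41.7 CPM) and RPRD1A_RPRD1B_RPRD2_KD (39.6 CPM) reached into the control range. For SHMT2 only the second RPRD1A_RPRD2_KD library did, at 181 CPM. IARS was at 18.2 and 18.2 CPM in CTRL and 36.3 and 26.9 in RPRD1B_RPRD2_KD, higher without overlap (0.80 (SE 0.26, edgeR unadjusted p = 0.00747)). ALDH18A1 was at 166 and 181 CPM in CTRL and 145 and 94.6 in RPRD1A_RPRD2_KD. LARS was at 216 and 185 CPM in CTRL and 153 and 164 in RPRD1A_RPRD1B_RPRD2_KD, and SLC7A11 overlapped between RPRD1B_RPRD2_KD (62.5 and 96.8 CPM) and CTRL (41.1 and 67.9 CPM). ATF4 itself did not separate from control except in RPRD2_KD, at 805 and 877 CPM against 964 and 1022, and it was highest in the second RPRD1A_RPRD2_KD library, at 1587 CPM. In that library Spearman's rho across genes between GC content and the deviation of the level was 0.458, against -0.254 to 0.132 in the other 15. The 2 RPRD1A_RPRD2_KD libraries differed by a chi-square of 10.7 per degree of freedom, against 3.52 to 5.92 in the other HEK293T groups.

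**Figure D4:**
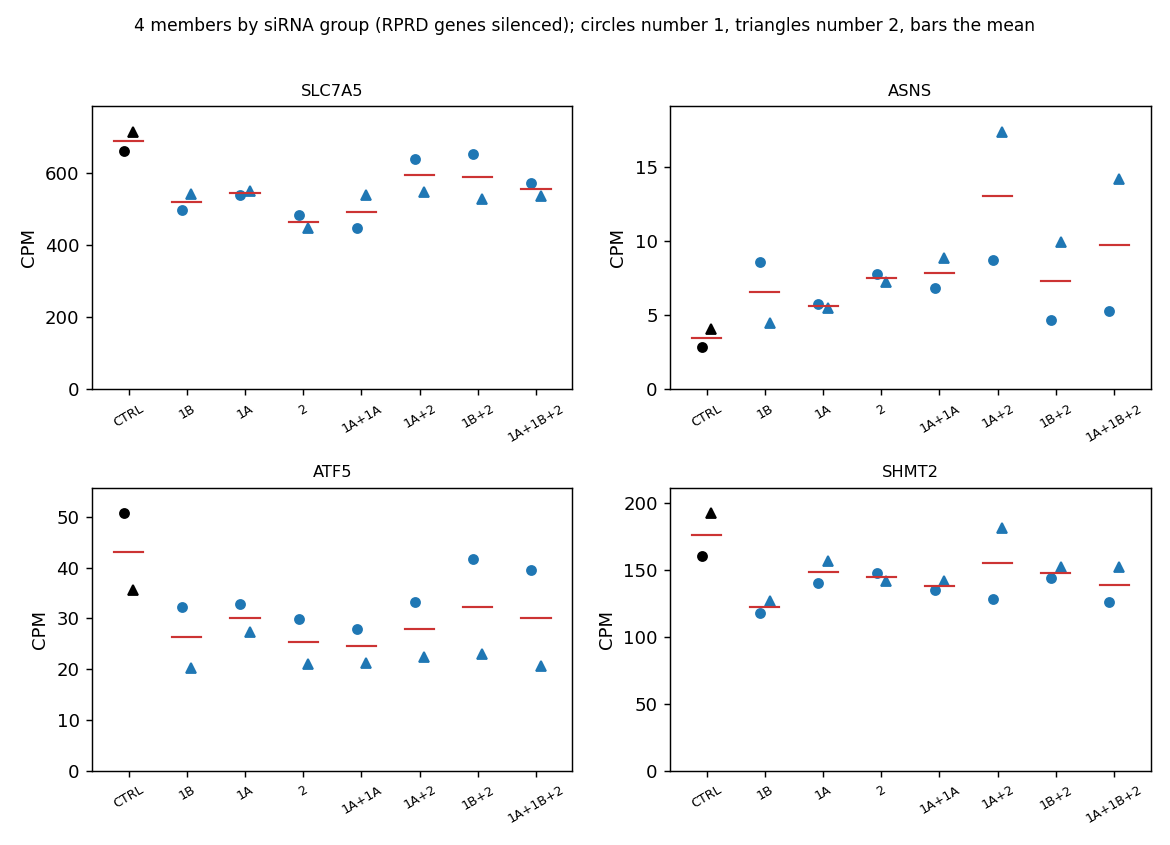
Levels in CPM of SLC7A5, ASNS, ATF5 and SHMT2 in the 8 HEK293T groups, with a circle for the library numbered 1, a triangle for the library numbered 2 and a red bar for their mean; black marks CTRL. For SLC7A5 the control pair, 663 and 714 CPM, is above all 14 silenced libraries, and for ASNS, at 2.85 and 4.10 CPM, it is below them.

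In HEK293T cells most members differed by the replicate number in the sample titles. This was examined after the data had been seen, and the labels do not say what the numbers mark. In a fit with 1 coefficient per group and 1 for the number, 26 of 40 members were called, where 20.1% of all genes were. Of these 25 were higher and ATF5 was lower in the libraries numbered 2, where 9.08% and 11% of all genes were called higher and lower. The median member difference was 0.38 on the log2 scale, against 0.00047 over all genes. In 17 members the library numbered 2 was above its partner in all 8 groups, as in 6.02% of all genes.

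CHAC1 spanned 3.28 to 10.4 CPM (median 7.24) in the libraries numbered 1 and 11 to 28.4 CPM (median 17.5) in those numbered 2, a difference, number 2 minus number 1, of 1.40 (SE 0.20, edgeR adjusted p = 9.12e-05). ATF3 spanned 8.98 to 17.5 CPM (median 12.7) in the libraries numbered 1 and 16.2 to 36.2 CPM (median 31.8) in those numbered 2, a difference of 1.16 (SE 0.15, edgeR adjusted p = 4.93e-05). The libraries numbered 1 and 2 do not overlap for CHAC1 and overlap for ATF3. DDIT3 spanned 10.6 to 15.9 CPM (median 12.5) in the libraries numbered 1 and 15.9 to 28.8 CPM (median 18.4) in those numbered 2, a difference of 0.66 (SE 0.13, edgeR adjusted p = 0.000998). DDIT4 spanned 123 to 199.6 CPM (median 154) in the libraries numbered 1 and 199.98 to 352 CPM (median 253) in those numbered 2, a difference of 0.74 (SE 0.10, edgeR adjusted p = 7.8e-05). Neither DDIT3 nor DDIT4 overlaps, but the gaps are narrow, 15.85 to 15.93 CPM for DDIT3 and 199.55 to 199.98 CPM for DDIT4. The share of all genes without such overlap is not given here. ATF4 spanned 722 to 964 CPM (median 802) in the libraries numbered 1 and 877 to 1587 CPM (median 1029.6) in those numbered 2, a difference of 0.38 (SE 0.071, edgeR adjusted p = 0.0008), and ATF5, the member called lower, 28 to 50.7 CPM (median 33.1) in the libraries numbered 1 and 20.3 to 35.5 CPM (median 21.8) in those numbered 2, a difference of -0.59 (SE 0.10, edgeR adjusted p = 0.000467). PYCR1, IARS and MARS were lower in number 2 in 7 of 8 groups and not called, PYCR1 at -0.17 (SE 0.084, edgeR adjusted p = 0.165). Without the second RPRD1A_RPRD2_KD library PYCR1 was called as lower, at -0.28 (edgeR adjusted p = 9.24e-07), and 29 members were called, 27 of them higher.

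In the serine branch PSAT1 spanned 118 to 153 CPM (median 139.6) in the libraries numbered 1 and 186 to 255 CPM (median 219) in those numbered 2, a difference of 0.67 (SE 0.076, edgeR adjusted p = 1.05e-05). PSPH differed by 0.77 (SE 0.12, edgeR adjusted p = 0.000166) and PHGDH by 0.35 (SE 0.11, edgeR adjusted p = 0.0305). All 3 enzymes of serine synthesis were thus higher in number 2. Of the transporters SLC3A2 (0.58 (SE 0.071, edgeR adjusted p = 2.2e-05)), SLC7A1 (0.44 (SE 0.069, edgeR adjusted p = 0.000191)), SLC7A11 (0.39 (SE 0.087, edgeR adjusted p = 0.00369)) and SLC38A2 (0.37 (SE 0.064, edgeR adjusted p = 0.000433)) were higher, while SLC7A5 (-0.026 (SE 0.063, edgeR adjusted p = 0.816)) and SLC1A5 (-0.028 (SE 0.063, edgeR adjusted p = 0.8)) were not called. Of 12 synthetases 6 were higher: AARS (0.44 (SE 0.079, edgeR adjusted p = 0.000558)), WARS (0.43 (SE 0.068, edgeR adjusted p = 0.000194)), CARS (0.40 (SE 0.072, edgeR adjusted p = 0.000589)), GARS (0.31 (SE 0.074, edgeR adjusted p = 0.00584)), SARS (0.24 (SE 0.068, edgeR adjusted p = 0.0175)) and YARS (0.22 (SE 0.058, edgeR adjusted p = 0.0113)). The other 6, among them MARS (-0.11 (SE 0.075, edgeR adjusted p = 0.355)) and EPRS (0.0077 (SE 0.063, edgeR adjusted p = 0.951)), were not called. With the number, the share of reads in the 5 rows outside genes also moved, from 45.64% to 48.47% in number 1 and from 40.48% to 42.11% in number 2, and its part in the result was not tested.

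**Figure D5:**
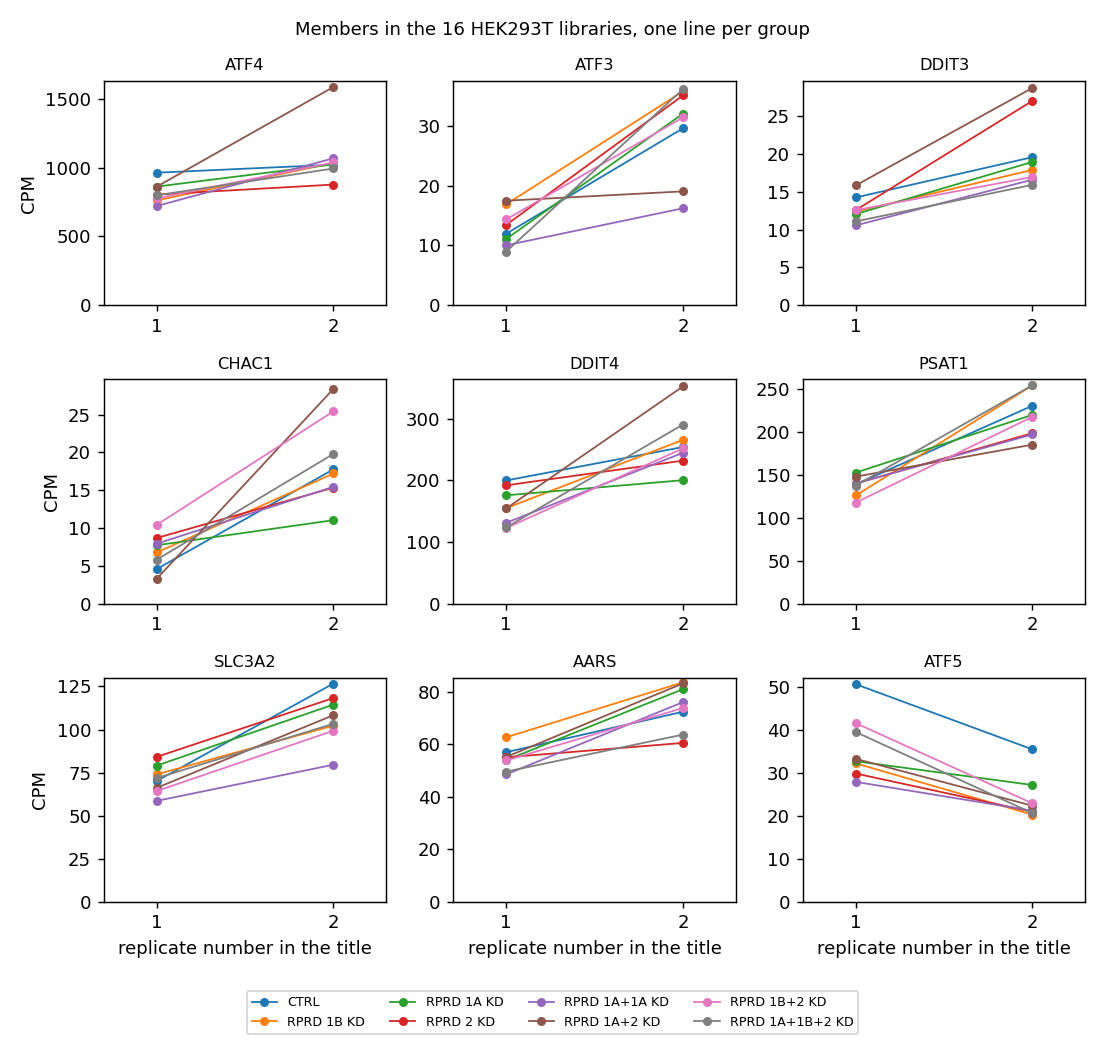
Levels in CPM of 9 members in the 16 HEK293T libraries, with the replicate number of the title on the x axis and 1 line per siRNA group. The lines of ATF4, ATF3, DDIT3, CHAC1, DDIT4, PSAT1, SLC3A2 and AARS climb in all 8 groups and those of ATF5 descend in all 8.

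Of related lists, beside 9.08% of all genes called higher and 11% called lower, 8 of 24 other ATF4-linked genes were higher and none lower, and 6 of 19 chaperones and degradation genes were higher and 2 lower. Of 11 other cytosolic synthetases and partners 3 were higher and 2 lower. Of 17 mitochondrial synthetases none was higher and 2 were lower, and of 16 genes of the eIF2 kinases, eIF2 and eIF2B 3 were higher and 3 lower. In the Flp-In libraries the number had no such pattern: in all 4 groups ATF3 and PSPH were higher and PYCR1 and SARS lower in number 2, 2 and 2 of 39 members, where 5.67% and 5.15% of all genes were. The number's effect was not tested between the lines.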

How the data were processed

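RNA of 24 samples was measured with QuantSeq 3′ libraries. The deposited values are raw counts of reads per gene name, in 58138 rows for each sample. Below them stand 5 further rows for reads that no gene received, which hold 30.4% to 48.5% of the reads and were kept out of library sizes and tests. The submitters' processing notes name FastQC, STAR, HTSeq, DESeq2 and the build GRCh38, with no version or role; the annotation and the strand setting are not given in the sources used here. Groups came from the labels.

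The counts of each line were fitted together by group with edgeR 4.0.16 and limma 3.58.1 under R 4.3.3. The filter on low counts was filterByExpr (minimum count 10, minimum total 15). Library sizes were scaled by TMM, and pairs of groups were tested, two-sided, with quasi-likelihood F-tests, with Benjamini-Hochberg adjustment over all genes tested. A gene was called at an adjusted p under 0.05. SE was taken as the size of the log2 fold change divided by the root of the F statistic. The scripts were tested on simulated counts. Positions, exon overlaps and GC content come from GENCODE release 29, promoters from RefSeq; the promoter windows are not reported here.

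Members given sample by sample are, in each Flp-In comparison, those called and then those of lowest p up to 12, and in each silenced group the 2 of lowest p. The members and the related lists were chosen with earlier results of these data known. Alternatives were DESeq2 1.42.0, RLE size factors, an adjusted p under 0.10, fits with no low-count filter, with genes averaging 50 counts or more or with the compared groups alone, a size limit of 1 on the log2 scale, the replicate number as a block, a GC correction (lowess, span 0.3, as an offset), both together, and each library left out. The description by replicate number in HEK293T, that number without the second RPRD1A_RPRD2_KD library and a crossed block were chosen after seeing the data. Depth of 1817246 to 3531106 reads in genes limits weak genes such as ASNS and VLDLR most.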

Additional observations from a re-analysis of the deposited data

How the results depend on the processing

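Over 45 results and 659 alternative values, 604 kept their direction and side of the threshold, 16 lost the threshold, 38 gained it and 1 changed sign. These results are member effects with an unadjusted p under 0.05, and most values that kept their side were never called. The called effects were MARS (FLP_TET against FLP), DDIT4 (RPRD1B_FL_TET against FLP_TET) and SLC7A1 (RPRD1B_FL against FLP). All 16 losses were theirs, over 14, 14 and 15 alternatives. For tetracycline in the parent line, the number of members called was 5 at an adjusted p under 0.10, 4 with no filter, 2 with DESeq2, 7 in a fit of only the compared groups, and 0 with a mean count of 50 or more or with a size limit of 1 on the log2 scale. Leaving out 1 library gave 0 to 6. For RPRD1B_FL_TET against FLP_TET it was 0 with RLE size factors, with a mean count of 50 or more and with a size limit of 1 on the log2 scale, 4 with the GC correction, and 0 to 3 leaving out 1 library. For RPRD1B_FL against FLP it was 0 with a size limit of 1 on the log2 scale, 2 with the GC correction, and 0 to 3 leaving out 1 library. All genes called for tetracycline in the parent line numbered 122, 950 at an adjusted p under 0.10, 762 with no filter, 217 with DESeq2, 1273 in a fit of only the compared groups, 239 when block and GC correction were joined, 48 with a size limit of 1, 1 with the replicate number as a block, 0 with a mean count of 50 or more and 0 to 681 leaving out 1 library. All genes called with the GC correction numbered 257 for RPRD1B_FL_TET against FLP_TET and 324 for RPRD1B_FL against FLP, against 133 and 141 in the main fit. With the GC correction the median member log2 fold change for tetracycline was 0.014 in the parent line and -0.050 in the RPRD1B_FL line. Leaving out 1 library moved that median from 0.075 to 0.16 in the parent line, from -0.049 to 0.044 in the RPRD1B_FL line, from -0.18 to -0.071 for the difference between these effects, and from -0.099 to 0.041 for RPRD1B_FL against FLP. The log2 fold change of ATF4 for RPRD1B_FL against FLP, -0.41, was 0.0013 without the first FLP library. For silenced groups, the number of members called for RPRD1A_RPRD2_KD was 1 (ASNS) with no filter. That fit called 87 of all genes there, against 1 in the main fit. Leaving out 1 library moved ASNS in RPRD1A_RPRD2_KD between 1.29 and 2.29 and the median for RPRD1A_KD from -0.28 to 0.10. Between 23 and 29 members, 22 to 27 of them higher, differed by the replicate number leaving out 1 library. Apart from settings that leave fewer samples or genes, the cause was not tested.

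The replicate numbers share only a number by the labels: deviations of same-numbered samples correlated with a mean r of 0.333 over 28 pairs of HEK293T groups (-0.0113 to 0.524) and -0.018 over 6 pairs of Flp-In groups (-0.357 to 0.46). With the replicate number as a block, 0 members were called for tetracycline in the parent line and 0 for RPRD1B_FL_TET against FLP_TET; MARS was at -0.87 (edgeR adjusted p = 0.0557) and DDIT4 at -0.73 (0.0580). The GC correction with the block gave medians of 0.014 and -0.057 for tetracycline in the parent and RPRD1B_FL lines, 4 members called for RPRD1B_FL_TET against FLP_TET and 3 for RPRD1B_FL against FLP. All genes called there numbered 262 and 353, against 133 and 141 in the main fit. With the numbers of RPRD1B_FL crossed, where the correlation with FLP was -0.274, 1 member and 94 genes were called against FLP. In the block fit that leaves out RPRD1A_RPRD2_KD number 2, SLC7A5 was at -0.41 in RPRD1B_KD, -0.57 in RPRD2_KD and -0.48 in RPRD1A_RPRD1A_KD. SHMT2 was at -0.53 in RPRD1B_KD. That fit leaves 1 library in RPRD1A_RPRD2_KD and called many more of all genes in these groups than the main fit did.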
